A study of Mus musculus with 87 samples.

Results

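The comparison described here set *Obox4*/*Dux* double knockout (double KO) mouse embryonic stem cells (mESCs) against wild type (WT) mESCs, both grown in pladienolide B (PlaB), and it comprised 6 of the 87 samples of the series, taken as the 3 double KO and 3 WT columns of the PlaB gene and repeat count tables. The series asked whether *Obox4* drives zygotic genome activation when *Dux* is lost, using binding maps of OBOX4 and DUX, knockdown and knockout embryos, and knockout mESCs. PlaB blocks the SF3B complex of the spliceosome, and mESCs kept in it through 5 sub-cultures take on features of early blastomeres. The study calls such cells totipotent blastomere-like cells. All lines derive from EB3 mESCs. The double KO line was made by deleting the *Dux* cluster from *Obox4* KO cells with 2 Cas9 guides, and the *Dux* KO line by deleting it from unedited EB3 cells with the same guides. Whether the *Obox4* KO line sequenced here was the parent of the double KO line, and so shares its *Obox4* edit, is not stated. PlaB libraries of single KO lines, 3 *Dux* KO and 3 *Obox4* KO, are given beside the main comparison, and both share the WT libraries with it. The knockout lines were grown from single edited cells, so genotype and clone cannot be told apart, and the labels only number the 3 libraries of each genotype, so the tests read the spread of these libraries alone, which may be technical.

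*Dux* is a multicopy gene for a transcription factor with a pair of homeodomains that is switched on around zygotic genome activation, the first wave of transcription from the embryo's own genome. DUX binds the long terminal repeats (LTRs) of the endogenous retrovirus MERVL, many of which act as promoters of genes that are read almost only in the 2C-embryo, such as the *Zscan4* family. *Obox4* is another multicopy homeobox gene, on chromosome 7, that is read at the same stage. In mESC cultures a few cells at a time enter a 2C-like state in which these genes and MERVL are on, and splicing inhibition increases their number.

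The deletion that the double KO and *Dux* KO lines share is defined by the *Dux* guides, which are shown because they set the bounds of the interval in which no read was found. Each guide is followed by its protospacer-adjacent motif in capitals, and each had 1 match on chromosome 10 of GRCm38.p6, Dux_KO_A at chr10:58254150-58254172 on the plus strand and Dux_KO_B at chr10:57848847-57848869 on the minus strand.
Dux_KO_A: aaggcacacagccgcttgctGGG
Dux_KO_B: gactttccccactagtggctTGG

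The guides enclosed 405.326 kb with 5 annotated genes, among them *Duxf3* (ENSMUSG00000075046, chr10:58229979-58232675), the *Dux* copy of this annotation. All 5 genes had 0 counts in each double KO library and each *Dux* KO library. Their summed counts were 332, 469 and 476 in *Obox4* KO libraries and 535, 564 and 535 in WT libraries. *Duxf3* alone had 0, 0 and 0 CPM (counts scaled to a common library total, after TMM scaling) in double KO libraries, against 5.78, 5.74 and 4.73 CPM in WT libraries. Set against a floor of 3 counts over the double KO group, its RNA was at least 146-fold lower in double KO cells (adjusted p = 1.37e-05, edgeR quasi-likelihood test with Benjamini-Hochberg adjustment), and all 5 genes passed the test. Of 16 tested genes within 1 Mb outside the guides, *Smpdl3a*, which codes for a phosphodiesterase, rose and *Gm6494* fell, with a median log2 fold change of −0.33 over the 16. Of all genes tested, 9.25% rose and 8.79% fell.

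*Obox4* RNA was near 0 in double KO cells, but it was also near 0 in *Dux* KO cells, whose *Obox4* genes were not edited. Summed over the 39 annotated *Obox4* copies, the libraries held 6, 0 and 2 counts in double KO cells, 6, 6 and 6 in *Dux* KO cells, 172, 176 and 393 in *Obox4* KO cells and 566, 581 and 589 in WT cells. The mean was 0.126 ± 0.109 CPM in double KO cells and 16.1 ± 0.817 CPM in WT cells (SD, n = 3 each). The *Obox4* deletion of the double KO line therefore cannot be checked in its RNA. By the paper's account the knockout removed all protein-coding *Obox4* copies but 1. For its knockout mice it names *Obox4-ps33* as the copy left in place. *Obox4-ps33* had 0 counts in every double KO library and every *Dux* KO library. In *Obox4* KO cells, where *Dux* was intact, *Obox4-ps16* had 0 CPM in all 3 libraries, against a WT mean of 3.21 CPM. *Obox4-ps27* also had 0 CPM, against 2.22 CPM. *Obox4-ps33* averaged 2.49 CPM in *Obox4* KO cells and 3.13 CPM in WT cells, and *Obox4-ps31* 1.04 CPM, against 1.21 CPM. Both *Obox4* KO means were raised by replicate 3. *Obox4-ps33* had 69, 56 and 146 counts in *Obox4* KO libraries and 113, 112 and 112 in WT libraries. *Obox4-ps31* had 16, 26 and 71 counts, against 38, 46 and 47. *Obox4-ps18*, which lies between *Obox4-ps16* and *Obox4-ps27*, had 0 counts in *Obox4* KO replicates 1 and 2 but 24 counts in replicate 3, against 41, 18 and 42 counts in WT libraries, and replicate 3 is the library of this line that stood apart in other genes too. Reads that map to several places were discarded in this table, and the copies are nearly alike. In the repeat table, where such reads were split between places, the sum was 0.143 CPM in double KO cells and 127 CPM in WT cells. Between the outermost copies (chr7:14517971-15825815) 17 genes were tested and 11 fell. Most of the 11 were *Obox4* copies, and most had no double KO count and could be tested only because other groups read them. Of 30 tested genes within 1 Mb outside the copies 4 rose and 1, *Obox6*, fell, where 9.25% of all genes rose and 8.79% fell.

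Sequencing depth was uneven. Double KO libraries held 32053122, 40410712 and 14283083 counts over genes, and WT libraries 33504080 to 38865755. Double KO replicate 3 stood apart from the other 2: a single RNA gene, ENSMUSG00000118642, took 29.8% of its counts, against 7.82% and 7.93% in double KO replicates 1 and 2 and 6.07% to 7.77% in WT libraries, and its log CPM correlated with them at 0.952 and 0.956, against 0.983 between them and 0.986 to 0.987 among WT libraries. Mitochondrial genes took 1.40% to 2.42% of counts in double KO libraries and 4.05% to 4.38% in WT libraries. *Obox4* KO replicate 3 also stood apart from its group, with 3282 CPM of *H19*, against 45.8 and 47.3 CPM in the other 2. Without double KO replicate 3 the test of double KO against WT cells called 3640 genes, and without *Obox4* KO replicate 3 it called 4614, against 4028 with all libraries. Markers that define mESCs were present in both groups, with 10 of 10 tested and a summed level of 2381, 2587 and 3017 CPM in double KO libraries and 4952 to 5045 CPM in WT libraries. Of the 10, 5 fell and none rose, against 8.79% and 9.25% of all genes. Markers of fibroblasts or feeder cells summed to 72.2 to 83.0 CPM in double KO libraries and 84.2 to 88.2 CPM in WT libraries, and of 9 tested 0 rose and 1 fell. Markers of blood cells summed to 111 to 122 CPM in double KO and 140 to 150 CPM in WT libraries, and 0 of 5 passed the test.

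Over all 22328 genes tested, 4028 (18.0%) passed the test, which required both an adjusted p no higher than 0.01 and a log2 fold change of 1 or more in either direction. Of these, 2065 (9.25%) were higher in double KO cells and 1963 (8.79%) lower, and the median log2 fold change of all genes was −0.06. Library values of the groups did not overlap for 56.1% of all genes. Of those called, 753 genes fell by more than 8-fold or to 0, and 360 rose by more than 8-fold. Of all genes tested 358 (1.6%) had 0 counts in all 3 double KO libraries. Such a gene could be tested only because another group read it, and it could not be called higher. Of these 332 fell, and 215 of the 332 also had 0 counts in *Dux* KO libraries, against 7 that had 0 counts in *Obox4* KO libraries. Over all genes tested, 283 had 0 counts in *Dux* KO libraries and 10 in *Obox4* KO libraries. Against *Dux* KO cells 1578 genes (7.07%) passed, of which 1132 (5.07%) were higher and 446 (2.0%) lower in double KO cells. Against *Obox4* KO cells 977 (4.38%) passed, of which 366 (1.64%) were higher and 611 (2.74%) lower. The interaction term, which tests whether the double KO level differs from what both single KO effects add up to on the log2 scale, passed for 278 genes (1.25%), positive for 177 (0.793%) and negative for 101 (0.452%).

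The 2C genes fell almost as a whole. Of 68 genes on the list 65 were in the table, 55 were tested and 54 of these fell in double KO cells, against 8.79% of all genes, and none rose. Of the 55, 28 had 0 counts in all double KO libraries, as did 1.6% of all genes. These 28 were tested only because other groups read them, and they could not be called higher. With genes at 0 set at the bound that the floor gives, the median log2 fold change of the list was −8.60, and −0.06 over all genes. The summed level of the list was 40.3, 39.6 and 42.8 CPM in double KO libraries, 35.2 to 36.3 CPM in *Dux* KO libraries, 1160, 1164 and 2985 CPM in *Obox4* KO libraries and 3836, 3965 and 3718 CPM in WT libraries. Fewer 2C-like cells and less RNA in each of them cannot be told apart in bulk RNA.

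Members of the *Zscan4* family, whose zinc finger proteins act in telomere maintenance and mark the 2C-like state, were not read at all in double KO cells. *Zscan4c* (chr7:11005745-11010547) had 0, 0 and 0 CPM in double KO libraries, 0 CPM in every *Dux* KO library, 92.5, 92.1 and 242 CPM in *Obox4* KO libraries and 207, 212 and 182 CPM in WT libraries. Its level was at least 5423-fold lower in double KO than in WT cells (adjusted p = 2.89e-06). *Zscan4d* was at least 5262-fold lower, *Zscan4a* 6081-fold, *Zscan4e* 3420-fold, *Zscan4f* 3163-fold and *Zscan4b* 1561-fold, each as a lower bound because double KO libraries had no count, and pseudogenes *Zscan4-ps1*, *Zscan4-ps2* and *Zscan4-ps3* were likewise at 0, with bounds of 2427-fold, 3420-fold and 3274-fold. These copies are close in sequence, and the share of each copy rests on reads that differ between them.

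Other 2C families fell as well, some as far as the *Zscan4* genes. *Gm21761*, a gene of the list known only by its model name, had 0 CPM in all double KO libraries, against 473, 477 and 502 CPM in WT libraries, a fall of at least 13090-fold. *Tcstv3* had 0 CPM in double KO libraries and 27.9, 28.4 and 28.8 CPM in WT libraries, at least 767-fold lower. *Zfp352*, a zinc finger gene that derives from a retrotransposed copy, had 0 CPM in double KO libraries, 4.30, 3.71 and 4.00 CPM in *Obox4* KO libraries and 54.5, 53.9 and 44.7 CPM in WT libraries, at least 1380-fold lower. Among the *Usp17l* deubiquitinase genes, *Usp17lb* fell at least 3203-fold, and *Usp17le* had 0.192, 0.102 and 0 CPM in double KO libraries, against 259, 257 and 253 CPM in WT libraries, a log2 fold change of −10.99 ± 0.34 (SE, adjusted p = 2.20e-09). *Usp17lc* fell by 9.97 and *Usp17la* by 7.74 on the log2 scale.

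Some members fell by less than these. *Sp110*, which codes for a nuclear body protein, had 0.192, 0.102 and 0 CPM in double KO libraries, a mean of 0.532 CPM in *Dux* KO libraries and 21.9, 20.7 and 20.6 CPM in WT libraries, with a log2 fold change of −7.40 ± 0.39. *Cacna1s*, the pore subunit of a voltage-gated calcium channel, had 2.11, 1.89 and 3.72 CPM in double KO libraries, against 92.4, 92.6 and 86.5 CPM in WT libraries, a log2 fold change of −5.23. These were the 2 list members that also passed the test against *Dux* KO cells, *Sp110* lower in double KO cells (log2 fold change −2.10, adjusted p = 0.00498) and *Cacna1s* higher (2.37, adjusted p = 0.0016). For *Sp110* both levels were low, at most 0.192 CPM in double KO libraries and a mean of 0.532 CPM in *Dux* KO libraries. Smaller falls were those of *Arl4d*, for a small GTPase (−1.95), *Acan*, for the proteoglycan aggrecan (−1.74), and *Ddit4l*, for an inhibitor of mTOR signalling (−1.19). *Dppa3*, which protects the maternal genome from demethylation in the zygote, had 2.37, 3.58 and 2.98 CPM in double KO libraries and 3.79, 3.43 and 3.32 CPM in WT libraries, and was the tested member that did not pass (adjusted p = 0.39).

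Against the *Obox4* KO line, 45 of the 55 tested 2C genes were lower in double KO cells and none was higher (2.74% of all genes were lower). Against the *Dux* KO line 1 was lower and 1 higher (2.0% and 5.07% of all genes). The 28 at 0 in double KO libraries could not be called higher in either comparison. In *Dux* KO libraries 22 of the 55 already had no count, so a further fall of these could not be seen. The count of 2C genes that fell against WT stayed between 51 and 54 over all alternatives run, and was 53 without double KO replicate 3.

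**Figure D1:**
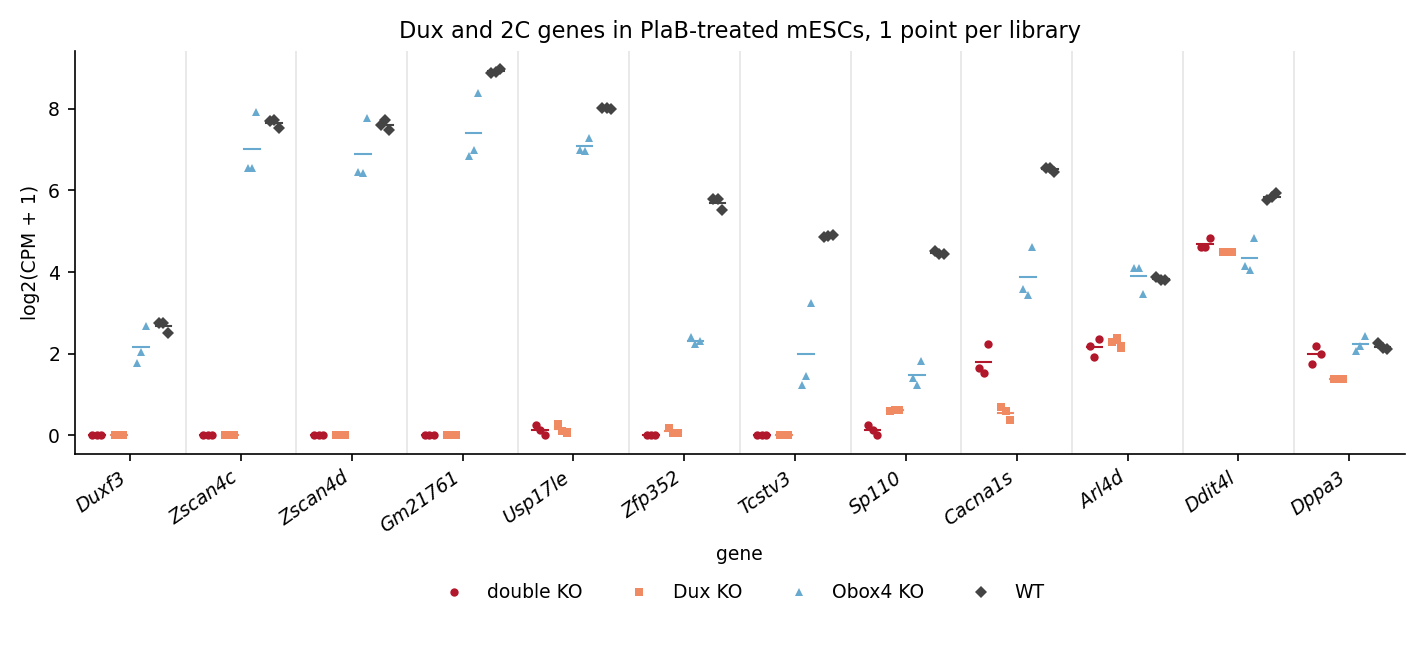
Level of *Duxf3* and 11 2C genes as log2(CPM + 1) on the vertical axis, with 1 point per library, a short line at the mean of each group, and groups from left to right double KO, *Dux* KO, *Obox4* KO and WT. The double KO points lie at 0 for *Duxf3*, *Zscan4c*, *Zscan4d*, *Gm21761*, *Zfp352* and *Tcstv3*, where WT libraries reached 4.73 CPM or more, and only *Dppa3* did not pass the test.

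The promoters of 4 *Zscan4* genes are shown because the *Zscan4* genes are the best known DUX targets among those at 0 in double KO cells. They are 71-base windows read from GRCm38.p6 around RefSeq start sites, in the direction of the gene, with the match to the pattern TGATT, any 2 bases, ATCA, close to the sequence that mouse DUX binds, in capitals. The pattern was searched on both strands and matched here on the strand opposite to the one printed.
Zscan4b, chr7:10905101-10905171, minus strand: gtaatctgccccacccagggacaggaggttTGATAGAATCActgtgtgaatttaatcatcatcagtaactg
Zscan4c, chr7:11005601-11005671, plus strand: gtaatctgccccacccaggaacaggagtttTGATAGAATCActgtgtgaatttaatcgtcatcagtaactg
Zscan4d, chr7:11166233-11166303, minus strand: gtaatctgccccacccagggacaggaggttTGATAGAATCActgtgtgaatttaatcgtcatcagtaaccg
Zscan4f, chr7:11397794-11397864, plus strand: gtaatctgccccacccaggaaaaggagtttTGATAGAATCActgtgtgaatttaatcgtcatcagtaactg

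The matches started at −91, −114, −125 and −91 bases from the start sites of *Zscan4b*, *Zscan4c*, *Zscan4d* and *Zscan4f*. Of 32851 RefSeq promoters of 300 bases 68 (0.207%) held the pattern, among them 4 of the 4 *Zscan4* promoters in the set. A peak of FLAG-tagged DUX, from mESCs induced to express it, covered the *Zscan4c* window with an enrichment of 7.38-fold as the authors' peak caller gave it, while no DUX peak covered the other 3 windows and no OBOX4 peak covered any of the 4. *Zscan4b*, *Zscan4d* and *Zscan4f* each had a DUX peak within 3000 bases of the start site. The paper shows DUX and OBOX4 binding sites at the *Zscan4d* locus. The 4 windows are nearly alike in sequence, and how reads were assigned among the copies was not tested.

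The deposited peak lists allow genes to be grouped by what was bound at their promoters in other experiments of the series. Of 342 tested genes with a DUX peak within 3000 bases of the start site, 10 (2.92%) rose and 141 (41.2%) fell in double KO cells, with a median log2 fold change of −1.07. Of 7429 with an OBOX4 peak in at least 2 of the 3 OBOX4 peak lists, 567 (7.63%) rose and 554 (7.46%) fell, with a median of −0.06. Of 167 genes with both, 1 rose and 53 (31.7%) fell, and of 14724 with neither, 10.1% rose and 8.97% fell. With a window of 1000 bases, 105 of 249 DUX-bound genes (42.2%) fell. The DUX-bound genes that fell included *Duxf3*, *AW822073* and *Gm10807*, which lie between the *Dux* guides, so their fall was set by the deletion. *Obox4* copies were also among them, as were mitochondrial genes such as *mt-Nd1*, and mitochondrial genes took a smaller share of counts in double KO libraries. From the 2C list they included the *Zscan4* genes and *Usp17le*. Beyond it they included *Cwc22* and *Rbm25*, which code for splicing factors and were picked out after their values were seen. *Cwc22* averaged 67.3 CPM in double KO and 244.8 CPM in WT cells (log2 fold change −1.86), and *Rbm25* averaged 197 CPM in double KO and 448 CPM in WT cells (−1.18).

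Of 8 genes on the list of other *Obox* genes, *Crxos* included, 4 were tested and 3 of these fell, against 8.79% of all genes, and the 4 that were not tested had too few counts. *Obox6* had 0.064, 0.051 and 0 CPM in double KO libraries, a mean of 0.388 CPM in *Dux* KO and 2.39 CPM in *Obox4* KO libraries, and 5.96, 6.12 and 5.95 CPM in WT libraries. Its log2 fold change was −6.85 ± 0.46 against WT (adjusted p = 4.15e-07) and −2.90 against *Dux* KO cells (adjusted p = 0.00259). *Obox3* and *Obox1* had no counts in double KO cells and fell at least 28.9-fold and 10.1-fold. *Crxos*, a homeobox gene that lies outside the *Obox* block, had 80.3, 129.8 and 52.0 CPM in double KO libraries and 65.7, 71.2 and 60.7 CPM in WT libraries and did not pass the test (adjusted p = 0.18). *Emx2* and *Hoxd13*, homeobox genes that the study names for totipotent blastomere-like cells, did not pass the test either. *Hoxd13* had 2.11, 3.63 and 1.68 CPM in double KO libraries and 5.42, 4.88 and 4.62 CPM in WT libraries (log2 fold change −0.96, adjusted p = 0.0171, and −1.36 with adjusted p = 0.00323 without double KO replicate 2), and *Emx2* had 0.192, 0 and 0 CPM in double KO libraries and 0.120, 0.215 and 0 CPM in WT libraries.

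Repeats were led by MERVL. Repeat CPM are scaled within the repeat counts of a library. Of 1054 repeat names tested 51 (4.84%) passed the test, 11 higher (1.04%) and 40 lower (3.8%) in double KO cells. MERVL-int, the internal part of the retrovirus, had 2059, 1962 and 1694 CPM in double KO libraries, a mean of 2843 CPM in *Dux* KO and 28860 CPM in *Obox4* KO libraries, and 99930, 105700 and 98320 CPM in WT libraries. Against *Dux* KO cells 5 repeats passed (0.474%), 4 higher (0.38%) and 1 lower (0.0949%) in double KO cells, and against *Obox4* KO cells also 5 (0.474%), 1 higher (0.0949%) and 4 lower (0.38%), of which MERVL-int was one. The interaction term passed for 5 repeats (0.474%), all 5 positive (0.474%) and 0 negative (0.0%). The log2 fold change of MERVL-int against WT was −5.73 ± 0.31 (adjusted p = 7.03e-07), and against *Dux* KO cells −0.58 (adjusted p = 0.168). As a share of all repeat counts, MERVL-int took 0.190%, 0.189% and 0.080% in double KO libraries and 10.4%, 11.1% and 9.98% in WT libraries. MT2_Mm, the LTR of MERVL, had 902, 807 and 1445 CPM in double KO libraries and 11770, 12360 and 12210 CPM in WT libraries, a log2 fold change of −3.53 ± 0.29.

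RLTR30C_MM and RLTR6B_Mm, LTRs of other retroviruses, fell by 3.17 and 3.16 on the log2 scale. GSAT_MM, the major satellite of pericentromeric DNA, had 233, 229 and 210 CPM in double KO libraries and 978, 969 and 1048 CPM in WT libraries, a log2 fold change of −2.15 (adjusted p = 0.000215). LTR91 and LTR108b_Mam fell by 4.29 and 4.15, at below 8 CPM in every WT library, and both lost the call when any of several single libraries was left out, LTR91 without double KO replicate 2 or WT replicate 2 or 3.

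The intracisternal A-particle (IAP) and other retroviruses were on the other side. IAPLTR1_Mm had 2152, 1634 and 4059 CPM in double KO libraries and 478, 463 and 581 CPM in WT libraries, a log2 fold change of 2.36 ± 0.40 (adjusted p = 0.00129). MMERVK10C-int, RLTR10-int, IAPA_MM-int, IAPEy-int and IAPEz-int had log2 fold changes of 1.66, 1.65, 1.61, 1.47 and 1.35, and MER96, a DNA transposon, 1.45. MER96 lost its call in every fit without 1 library except that without double KO replicate 2 (adjusted p of 0.0101 to 0.0208), and IAPEz-int without double KO replicate 1 or any 1 WT library (0.0143 to 0.0183). These rises depended on the scale. With library scaling taken from the gene table, the median of all repeats moved by −0.92, 1 repeat was higher and 418 were lower, and these 6 lost their calls, whereas IAPLTR1_Mm kept it at 1.37. Repeat reads made up 8.45%, 9.68% and 10.9% of the repeat table's counts in double KO libraries and 13.8% to 14.3% in WT libraries, and 1 DNA transposon, FordPrefect, took 24.2%, 21.2% and 41.8% of repeat counts in double KO libraries and 11.9% to 13.6% in WT libraries. The part of these shares in the repeat values was not tested. RLTR9E, RLTR9D and RLTR13B2 are of LTR families toward which the paper found OBOX4 binding biased. They and L1Md_T, a young LINE-1 family, did not pass, with log2 fold changes of −0.17, −0.40, 0.22 and 0.72. With gene scaling RLTR9E and RLTR9D did pass as lower, at −1.09 and −1.33, where the median of all repeats was −0.93. RLTR13B2 and L1Md_T turned to −0.70 and −0.24 with gene scaling and did not pass.

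**Figure D2:**
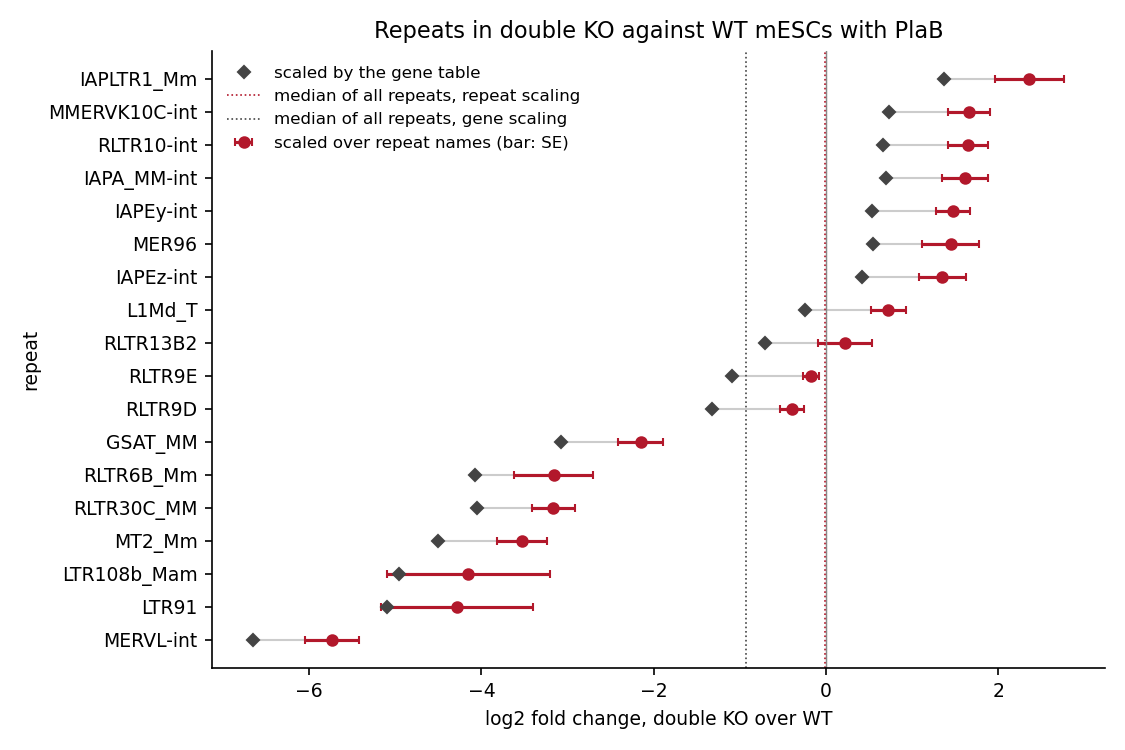
Log2 fold change of 18 repeat names in double KO over WT cells on the horizontal axis, red circles with SE bars for scaling over repeat names and dark diamonds for scaling by the gene table, with dotted lines at the median of all repeats under each scaling. MERVL-int lies farthest left at −5.73, or −6.66 with gene scaling, and IAPLTR1_Mm farthest right at 2.36, or 1.37.

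Trophectoderm genes rose. Of 20 list members, all tested, 16 rose in double KO cells, against 9.25% of all genes, and none fell, with a median log2 fold change of 2.89. The trophectoderm is the outer layer of the blastocyst that forms the placenta, and the list holds its transcription factors, keratins and junction proteins. Against *Dux* KO cells 14 of the 20 were higher in double KO cells (5.07% of all genes), and against *Obox4* KO cells 5 (1.64% of all genes), and none was lower in either comparison. The count that rose against WT was 16 without double KO replicate 3, 17 without *Obox4* KO replicate 3 and 14 without any 1 WT library. Over the alternatives run it was 14 to 18.

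Among the transcription factors, *Gata2* had 794, 811 and 992 CPM in double KO libraries and 19.4 ± 0.844 CPM in WT libraries (mean ± SD, n = 3), a log2 fold change of 5.48 ± 0.55 (adjusted p = 9.13e-06). *Gata3* had 124.7, 133 and 96.7 CPM in double KO libraries and 18.7 ± 0.486 CPM in WT libraries (2.66 ± 0.21). *Hand1*, a regulator of trophoblast giant cells, had 40.4, 35.2 and 35.8 CPM in double KO libraries and 1.93, 2.84 and 3.24 CPM in WT libraries (3.79 ± 0.23). Its mean was 2.29 CPM in *Dux* KO cells, and it was higher in double KO cells than in either single KO, with log2 fold changes of 4.02 against *Dux* KO (adjusted p = 2.09e-06) and 2.30 against *Obox4* KO cells (adjusted p = 3.20e-05).

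*Cdx2*, which sets up the trophectoderm, had 83.8, 119 and 166.8 CPM in double KO libraries and 16.6, 14.8 and 17.3 CPM in WT libraries (log2 fold change 2.92, adjusted p = 0.00325). Its groups did not overlap, but the call was lost without double KO replicate 3 (adjusted p = 0.012) or without WT replicate 1, 2 or 3 (adjusted p of 0.0153, 0.017 and 0.0147). *Tfap2c* rose by a log2 fold change of 2.44, *Ascl2* by 2.86 and *Tead4*, which acts upstream of *Cdx2*, by 1.32. *Tfap2a*, *Elf5*, *Plac1* and *Eomes* did not pass, with log2 fold changes of 0.72, 2.64, 2.50 and 0.51, and *Eomes*, a T-box factor of trophoblast stem cells, had 27.4, 26.8 and 26.3 CPM in double KO libraries and 21.1, 16.7 and 18.7 CPM in WT libraries.

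The epithelial genes of the list reached high levels. *Krt8*, which codes for a keratin of simple epithelia, had 1678, 1274 and 1364 CPM in double KO libraries, a mean of 179.6 CPM in *Dux* KO libraries, 311, 311 and 746 CPM in *Obox4* KO libraries and 53.5, 52.1 and 53.9 CPM in WT libraries, a log2 fold change against WT of 4.76 ± 0.31 (adjusted p = 3.50e-07). Its partner *Krt18* had 1752, 1353 and 1617 CPM in double KO libraries and 32.0, 33.8 and 32.1 CPM in WT libraries (5.59 ± 0.63, adjusted p = 2.06e-05). Every double KO library lay above every library of the other 3 genotypes for both keratins. *Cldn4*, for a tight junction protein, had 789, 611 and 912 CPM in double KO libraries and 79.1, 81.9 and 84.2 CPM in WT libraries, with a log2 fold change of 3.24 ± 0.14 (adjusted p = 2.34e-08). *Krt19* and *Krt7* rose by 3.12 and 4.74 on the log2 scale.

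Primitive endoderm genes rose as well, at lower levels. Of 18 tested members 11 rose, against 9.25% of all genes, and none fell, with a median log2 fold change of 1.74. The count that rose was 8 to 11 over the alternatives run. *Gata6*, a factor that starts this lineage, had 69.9, 135 and 156 CPM in double KO libraries and 15.1, 14.3 and 15.5 CPM in WT libraries (3.01 ± 0.36), and *Sox17* had 13.8, 14.2 and 21.6 CPM in double KO libraries and 1.75, 1.34 and 1.49 CPM in WT libraries (3.43 ± 0.38). *Sox7* rose by 3.76, *Gata4* by 2.12 and *Pdgfra*, which codes for a receptor that marks the lineage, by 1.36. The basement membrane collagen genes *Col4a1* and *Col4a2* rose by 2.30 and 2.19, and both lie on chromosome 8, described last. Of the laminin genes *Lama1*, *Lamb1* and *Lamc1* none passed the test. Against *Dux* KO cells 5 of the 18 were higher in double KO cells (5.07% of all genes), and against *Obox4* KO cells also 5 (1.64% of all genes). *Gata6* was higher than in both, by 2.77 against *Dux* KO (adjusted p = 0.000251) and 2.03 against *Obox4* KO cells (adjusted p = 0.00239).

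**Figure D3:**
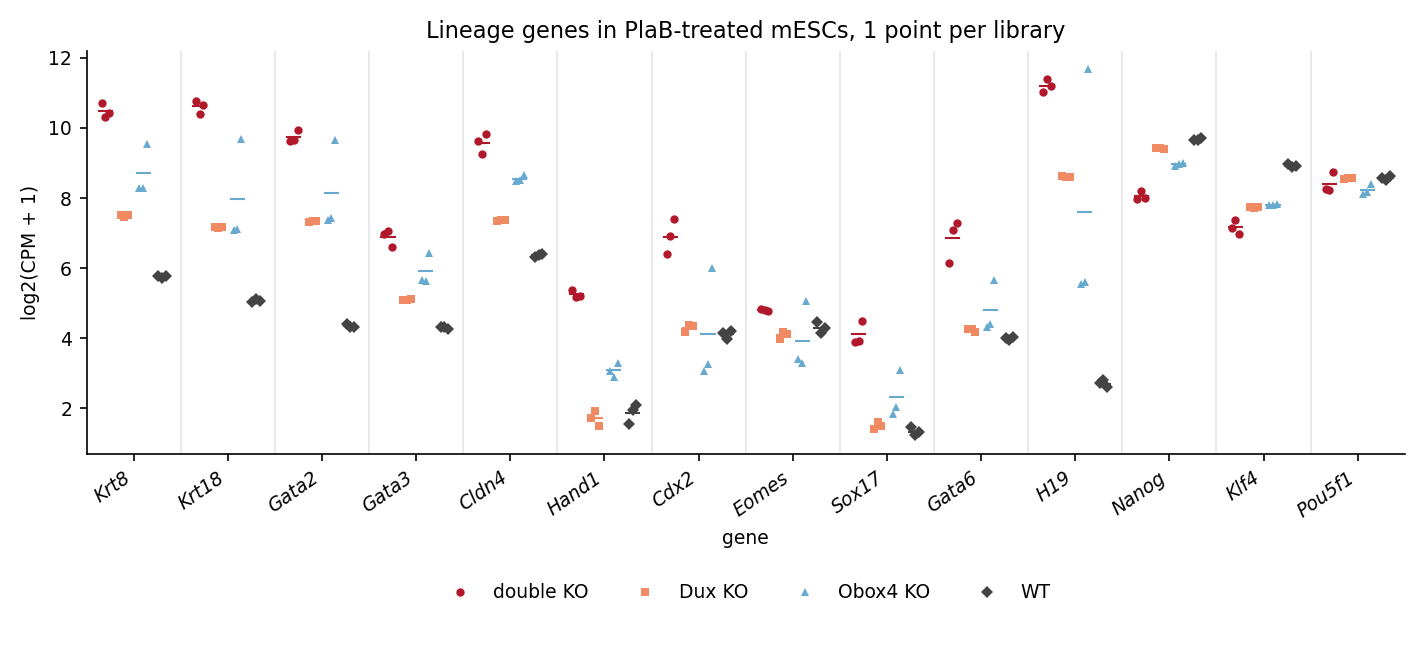
Level of 14 lineage genes as log2(CPM + 1) on the vertical axis, with 1 point per library, a short line at each group's mean, and groups from left to right double KO, *Dux* KO, *Obox4* KO and WT. The 3 double KO points of *Krt8*, *Krt18*, *Gata2*, *Hand1* and *Sox17* lie above all WT points, those of *Nanog* and *Klf4* lie below them, and those of *Pou5f1* overlap them.

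Among genes with more than a model or clone name, the 12 with the largest rises were led by *H19*, an imprinted long non-coding RNA that is abundant in placenta. It had 2099, 2673 and 2354 CPM in double KO libraries, a mean of 392 CPM in *Dux* KO libraries, 45.8, 47.3 and 3282 CPM in *Obox4* KO libraries and 5.54, 5.93 and 5.10 CPM in WT libraries. The log2 fold change was 8.75 ± 1.53 against WT (adjusted p = 0.000673), and the difference from *Dux* KO cells did not pass (2.60, adjusted p = 0.116). Both tests share their estimate of spread with the *Obox4* KO libraries, which differed widely in *H19*, so the failure to pass does not show equal levels. *Gata2* and *Krt18*, given above, were among the 12. Transport genes were also among them: *Scnn1g* and *Scnn1a* code for subunits of the epithelial sodium channel, and *Slc6a14* for an amino acid transporter. *Scnn1a* had 30.7, 27.6 and 26.7 CPM in double KO libraries and 0.602, 0.429 and 0.372 CPM in WT libraries (5.92 ± 0.79). *Scnn1g* had 1.73, 1.58 and 0.372 CPM in double KO libraries and no count in WT libraries, at least 44.3-fold higher. The others were *Trhr2*, for a receptor of thyrotropin-releasing hormone (log2 fold change 7.78), *Acta1*, for skeletal muscle actin (6.13), *Slc6a14* (6.05), *Il17re*, for a subunit of an interleukin receptor (5.98), *Pdzd3*, for a scaffold protein of epithelial membranes (5.80), *Klk7*, for a serine protease (5.66), and *Aldh3b2*, for an aldehyde dehydrogenase (5.50). The call of *Slc6a14* was lost without double KO replicate 1 or 2, any 1 WT library or any 1 *Dux* KO library, and that of *Aldh3b2* without WT replicate 1 or 3.

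Leaving out genes known only by a model or clone name, some of which, such as *Gm21761*, fell farther, the 12 with the largest falls were the *Zscan4* genes *Zscan4a* to *Zscan4f*, the 3 *Zscan4* pseudogenes, *Usp17lb*, *Zfp352* and *Tcstv3*, all given above and all at 0 in double KO libraries.

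Naive pluripotency genes fell in part. Of 22 tested members 9 fell, against 8.79% of all genes, and none rose, with a median log2 fold change of −0.86. Without double KO replicate 3 the count that fell was 10. *Nanog*, a core factor of naive pluripotency, had 250.5, 293 and 255 CPM in double KO libraries, a mean of 686 CPM in *Dux* KO libraries, 479.9, 500.1 and 513 CPM in *Obox4* KO libraries and 806, 813 and 843 CPM in WT libraries, a log2 fold change against WT of −1.62 ± 0.09 (adjusted p = 1.32e-07). *Klf4* had 140.3, 165 and 125 CPM in double KO libraries and 498, 475 and 478 CPM in WT libraries (−1.75 ± 0.10). *Sox2* fell by 1.88, *Prdm14* by 2.63, *Tcl1* by 1.88, *Esrrb* by 1.06 and *Fgf4* by 1.13. *Nr0b1*, which lies on chromosome X, fell by 1.83. *Esrrb* fell by less than the fold asked for when double KO replicate 1 was left out (−0.99). *Pou5f1*, which codes for OCT4, had 307, 297 and 429 CPM in double KO libraries and 383, 365 and 398 CPM in WT libraries and did not pass (−0.15, adjusted p = 0.4). *Fbxo15*, a marker of undifferentiated mESCs, had 129, 139.7 and 105 CPM in double KO libraries and 585, 589 and 575 CPM in WT libraries (−2.22). Against *Dux* KO cells 6 of the 22 were lower (2.0% of all genes), *Nanog* by 1.37 on the log2 scale, and against *Obox4* KO cells 1, *Tcl1* (2.74% of all genes).

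Among 30 known activators of *Dux* and repressors of the 2C state, 4 (13.3%) fell and 1 (3.33%) rose, against 8.79% and 9.25% of all genes. *Nelfa*, for a subunit of the negative elongation factor that can activate *Dux*, had 67.7, 70.4 and 50.6 CPM in double KO libraries, a mean of 70.7 CPM in *Dux* KO libraries, a mean of 175 CPM in *Obox4* KO libraries and 395, 385 and 392 CPM in WT libraries (log2 fold change against WT −2.63 ± 0.15, adjusted p = 1.27e-07). *Dppa2*, which opens the *Dux* promoter, had 59.7, 69.8 and 44.2 CPM in double KO libraries and 223, 229 and 217 CPM in WT libraries (−1.94 ± 0.16). *Atrx*, which lies on chromosome X, and *Rif1*, both for chromatin proteins that hold retroviruses silent, fell by 1.40 and 1.52, and *Ehmt2*, for the histone methyltransferase G9a, rose by 1.44. In these 3, double KO replicate 3 lay apart from the other 2 libraries, with 142 CPM of *Rif1* against 339 and 372 CPM, but none overlapped WT.

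Genes of the actin cytoskeleton, matrix and adhesion rose in 14 of 29 tested members and fell in 2, against 9.25% and 8.79% of all genes, with a median log2 fold change of 1.28. *Lgals1*, for the lectin galectin-1, had 285, 242 and 228 CPM in double KO libraries and 39.6, 43.3 and 36.6 CPM in WT libraries (2.66 ± 0.12, adjusted p = 3.53e-08). *Anxa2* had 452, 383 and 381 CPM in double KO libraries and 46.5, 49.3 and 44.7 CPM in WT libraries (3.11 ± 0.14), and this gene for a membrane-binding annexin was also higher than in each single KO line. *S100a6*, for a calcium-binding protein, *Tpm1*, for tropomyosin, and *Tagln2* rose by 3.10, 2.63 and 2.10. *Fn1*, which codes for fibronectin, fell by 1.19, and *Cdh1*, for E-cadherin, rose by 1.10. Of the 14 that rose, *Cdh1* and *Tpm4* lie on chromosome 8.

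Imprinted genes, which are read from 1 parental allele, went both ways. Of 34 tested 12 (35.3%) rose and 5 (14.7%) fell, against 9.25% and 8.79% of all genes. *Peg10*, a retrotransposon-derived gene needed for the placenta, had 7936, 7871 and 5071 CPM in double KO libraries, a mean of 1787 CPM in *Dux* KO libraries, 3761, 3603 and 8153 CPM in *Obox4* KO libraries and 490.2, 496 and 471 CPM in WT libraries (3.84 ± 0.30, adjusted p = 1.23e-06), and its neighbour *Sgce* rose by 3.05. *Peg3* had 293, 222 and 219 CPM in double KO libraries and 44.8, 44.8 and 46.9 CPM in WT libraries (2.43 ± 0.14). *Plagl1* and *Cdkn1c*, a growth regulator and a cell cycle inhibitor, rose by 2.51 and 2.52, and *Mest* by 1.45. *Grb10*, for an adaptor that limits insulin signalling, had 14.0, 16.6 and 12.8 CPM in double KO libraries, a mean of 15.6 CPM in *Dux* KO libraries, 13.1, 12.3 and 15.7 CPM in *Obox4* KO libraries and 57.6, 54.5 and 52.5 CPM in WT libraries (−1.92 ± 0.14). The 3 knockout lines overlapped one another and none overlapped WT. The count of falls ran between 1 and 7 over the alternatives run, and was 1 without any 1 WT library or without double KO replicate 2. Without double KO replicate 3 the list had 11 rises and 4 falls, and without *Obox4* KO replicate 3 it had 13 and 7.

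Of 28 interferon response genes 8 (28.6%) were higher and 4 (14.3%) lower, against 9.25% and 8.79% of all genes. The genes for antigen presentation *H2-D1*, *H2-K1* and *Tap1* rose by 2.12, 1.46 and 1.80, and the virus sensor gene *Ifih1* and the antiviral genes *Rsad2* and *Gbp2* by 3.62, 4.42 and 3.48, all 3 at no more than 6.34 CPM. *H2-D1* had 76.9, 65.7 and 92.6 CPM in double KO libraries and 18.0 ± 1.08 CPM in WT libraries (mean ± SD, n = 3). The membrane proteins that block virus entry were on the other side, with *Ifitm1*, *Ifitm2* and *Ifitm3* lower by log2 fold changes of −2.89, −1.78 and −1.27, and *Xaf1* by −1.83.

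Shares of several smaller lists are set here against the 9.25% of all genes that were higher and the 8.79% that were lower. The germ line list had 8 of 30 higher (26.7%), among them the piRNA pathway genes *Mov10l1* (1.57), *Tdrd1* (2.19) and *Piwil2* (1.12), and 2 lower, of which *Dazl*, for a germ cell RNA-binding protein, had 27.5, 37.8 and 14.5 CPM in double KO libraries and 126, 133 and 118 CPM in WT libraries (−2.22). *Hox* genes had 2 of 29 higher (6.9%) and 6 lower (20.7%, and between 3 and 7 genes over the alternatives run), with *Hoxa9* at 0.961, 0.920 and 0 CPM in double KO libraries and 5.72, 7.91 and 6.37 CPM in WT libraries. Formative pluripotency genes had 3 of 15 higher (20.0%), including *Pou3f1* (2.49), and 3 lower, including *Zic2* (−1.78) and, on chromosome X, *Sox3* (−3.75). DNA methylation genes had 2 of 14 higher (14.3%), *Tet3* (1.81) and *Dnmt3a* (1.14), and 1 lower (7.14%), *Tet1* (−1.46). The call of *Dnmt3a* was lost without double KO replicate 3 (0.98).

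Mesoderm genes had 3 of 14 higher and 3 lower (21.4% each), and 1 higher without double KO replicate 3, with *Snai1*, which drives loss of epithelial junctions, at 10.5, 11.2 and 8.94 CPM in double KO libraries and 37.2, 34.2 and 38.4 CPM in WT libraries (−1.83). Neural genes had 2 of 15 higher and 2 lower (13.3% each), with none lower without double KO replicate 3, and oocyte genes 1 of 18 higher (5.56%) and 2 lower (11.1%), against 9.25% and 8.79% of all genes.

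The lists of general cell state held few called members, set against 9.25% higher and 8.79% lower of all genes. The p53 list had 3 of 26 higher (11.5%), the apoptosis genes *Bbc3* (1.31), *Perp* (1.15) and *Bcl2l1* (1.36), and 1 lower, and the call of *Bbc3* was lost without double KO replicate 3 (0.99). The integrated stress response had 2 of 24 higher and 2 lower (8.33% each), and heat shock and unfolded protein genes 2 of 19 higher (10.5%) and 1 lower (5.26%). Glycolysis and hypoxia genes had 3 of 26 higher (11.5%), including *Ndrg1* (3.48), and 3 lower, including, on chromosome X, *Pgk1* (−1.52). No gene of 26 for SF3B and U2 splicing factors, the target of PlaB, and none of 24 for cholesterol synthesis passed the test in either direction, with medians of −0.20 and −0.09.

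**Figure D4:**
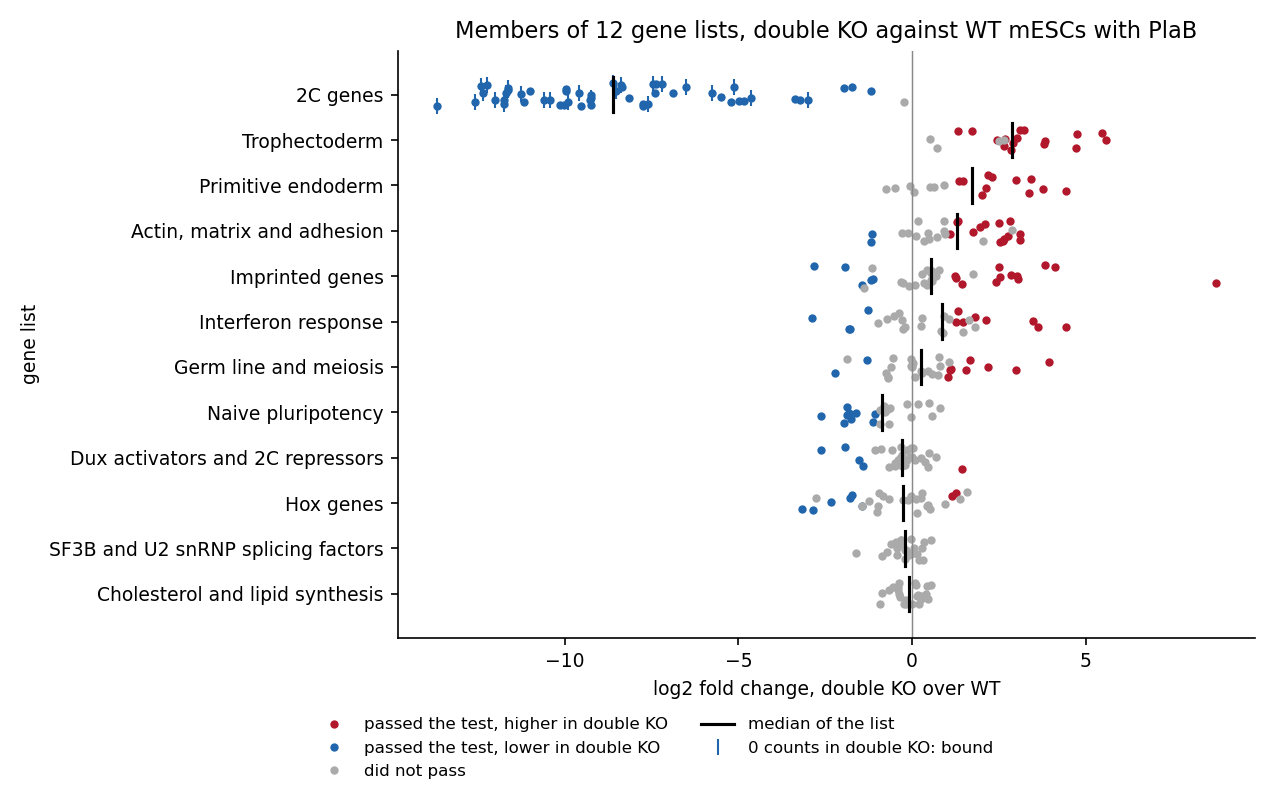
Log2 fold change in double KO over WT cells on the horizontal axis for each tested member of 12 gene lists, 1 point per gene, red where higher and blue where lower by the test, grey where it did not pass, with a tick through genes at 0 in double KO libraries, drawn at their bound, and a black line at the list's median. The 2C list lies at the far left with a median of −8.60 and trophectoderm to the right with 2.89, while SF3B and cholesterol genes hold no coloured point.

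Whole chromosomes also differed in level. The median over the genes of a chromosome of log2(CPM + 1), taken as the difference from the WT mean, was 0.310, 0.337 and 0.276 on chromosome 8 in double KO libraries, 0.346 to 0.356 in *Dux* KO libraries, 0.305 to 0.327 in *Obox4* KO libraries, and −0.0052 to 0.0046 in WT libraries. Of 1184 tested genes on chromosome 8, 21.0% were higher and 3.89% lower in double KO cells. On chromosome X the medians were −0.308, −0.352 and −0.582 in double KO libraries, −0.195 to −0.235 in *Dux* KO libraries, −0.231 to −0.301 in *Obox4* KO libraries and −0.0056 to 0.0147 in WT libraries, and 25.6% of 707 genes were lower. Medians of double KO and WT libraries did not overlap on 15 of 21 chromosomes, with p = 0.1 in an exact permutation test (two-sided), the smallest that 3 against 3 libraries can give. All 3 knockout lines shared the shifts of chromosomes 8 and X in direction. DNA copy number was not measured, and its part in these values was not tested. No tested gene of the 2C or trophectoderm lists lies on chromosome 8, while *Trhr2* and *Acta1* of the 12 largest rises do.

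**Figure D5:**
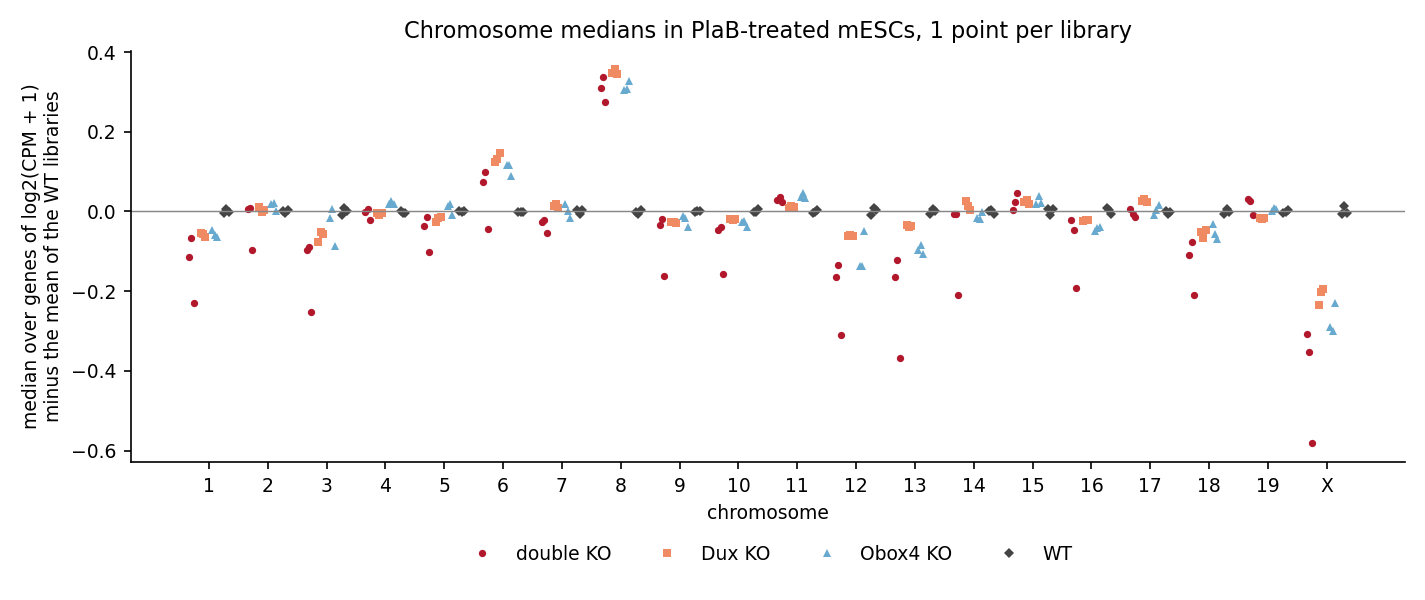
Median over genes of log2(CPM + 1) minus the WT mean on the vertical axis for chromosomes 1 to 19 and X, 1 point per library, with groups from left to right double KO, *Dux* KO, *Obox4* KO and WT. All knockout libraries lie above WT on chromosome 8 and below it on chromosome X, where double KO replicate 3 is lowest at −0.582.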

How the data were processed

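RNA-seq libraries were directional and paired-end. Reads were trimmed with fastp 0.23.2, aligned to GRCm38.p6 with STAR 2.7.9a and counted with featureCounts 2.0.1 by the authors. The deposited gene table holds raw counts of 55487 annotated genes, with multi-mapping reads discarded. The deposited repeat table holds estimated counts, since multi-mapping reads were split into fractions, and was summed over 1146 repeat names and rounded. Strand setting and annotation release are not given in the sources used here. Deposited peak lists carry fold enrichment as a ratio and −log10 q-values from MACS3 3.0.0a6. Peaks were called per replicate by the authors after alignment with Bowtie2 2.4.1, and every listed peak was used.

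Gene counts of the 12 PlaB libraries (3 for each of 4 genotypes) were fitted together with edgeR 4.0.16 in R 4.3.3, after filterByExpr and TMM scaling, and tested by quasi-likelihood with Benjamini-Hochberg adjustment over all 22328 genes. The 12 libraries share 1 estimate of spread. A gene was called where the adjusted p was 0.01 or less and the log2 fold change was 1 or more in size. CPM were scaled by TMM. Where a group had no count, the fold was bounded by 3 counts over the group. Total counts were 14283083 to 48837123 per library, and the shallowest, double KO replicate 3, gives the widest counting error. Simulated data for this comparison had 22328 genes, of which 200 were changed. An adjusted p of 0.01 or less, whatever the fold change found, was reached by 40% of rises and 44% of falls of 2-fold. For 4-fold changes it was reached by 96% of rises and 86% of falls. By the full rule for a call there was 1 false call. The simulation gave each gene the same spread in all groups, whereas the double KO libraries differed more among themselves than the WT libraries. No replicate pair agreed within sampling noise. Alternatives were DESeq2 1.42.0, RLE scaling, no filter, the 6 compared libraries alone, a replicate block, thinning to equal depth, a looser threshold and leaving out each of the 12 libraries. Leaving out each single KO library or 3 abundant RNA genes was added after the data had been seen. Figures were drawn with matplotlib 3.10.9.

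The comparison and the gene lists were chosen with earlier results of these data known. Genes named are the *Obox4* and *Dux* copies, *Dppa2*, *Sp110*, *Zscan4d*, *Zscan4c*, *Emx2* and *Hoxd13*, the 12 largest rises and falls with non-overlapping groups, a mean count of at least 20 and more than a model or clone name, and up to 4 members with the smallest p of each list. Named repeats are the 6 largest rises and falls and 8 set families. Other list members named were chosen after their values were seen. Tables of embryo experiments were not used here.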

Additional observations from a re-analysis of the deposited data

Results flagged for a closer look

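An interaction term of the same edgeR fit compared differences between lines. It set double KO over *Obox4* KO cells against *Dux* KO over WT cells. With Benjamini-Hochberg adjustment over all genes, 278 (1.25%) passed. The knockout lines were grown from single edited cells, so the term cannot tell an effect of genotype from a difference between clones. *Obox4* RNA was also near 0 in *Dux* KO cells. Among the 133 named genes 6 passed, against 11 without double KO replicate 3 and 25 without *Obox4* KO replicate 3. A positive term means that the double KO level was above what the effects of both single KO lines add up to on the log2 scale.

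*Hand1* had a term of 2.53 (adjusted p = 0.000785), with 37.1 ± 2.83 CPM in double KO cells, 2.29 ± 0.468 CPM in *Dux* KO cells, 7.54 ± 1.25 CPM in *Obox4* KO cells and 2.67 ± 0.674 CPM in WT cells (SD, n = 3 each). It was the one of the 6 whose double KO level lay above those of the other 3 genotypes by more than 4-fold. *Grb10* had a term of 1.89 (adjusted p = 0.000391), with about the same drop in each knockout line. The other 4 had negative terms, and each was higher in every knockout line than in WT cells. *Plagl1* had −4.02 (adjusted p = 4.34e-05), with 77.4 CPM in double KO, 109 CPM in *Dux* KO, 157 CPM in *Obox4* KO and 13.7 CPM in WT cells. *Peg3* had −1.67, with 244.9 CPM in double KO, 135 CPM in *Dux* KO, 263 CPM in *Obox4* KO and 45.5 CPM in WT cells. *Lgals1* had −1.24 and *Sgce* −1.68.

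Among repeats, GSAT_MM had a term of 2.16 (adjusted p = 0.00961), with 224 CPM in double KO, 142 CPM in *Dux* KO, 355 CPM in *Obox4* KO and 998 CPM in WT cells. *Obox4* KO replicate 3, which stood apart in its group, enters every one of these terms.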

How the results depend on the processing

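Each genotype is represented by 3 libraries that share 1 estimate of spread with the single KO lines, and double KO replicate 3 is the shallowest. With all libraries 4028 genes were called, and over all alternatives 3120 to 5332. Leaving out each of the 12 libraries in turn gave 3120 to 4614 called genes, 1631 to 2348 higher, 1489 to 2266 lower, 39 to 62 repeats, 32 to 50 named genes against *Dux* KO and 33 to 64 against *Obox4* KO cells. DESeq2 called 2304 genes higher and 2421 lower. Repeats called went to 419 with scaling by the gene table. The count of named genes with an interaction was 6, and became 18 with DESeq2, 15 with no filter, 14 at an adjusted p of at most 0.05, 11 without double KO replicate 3 and 25 without *Obox4* KO replicate 3 (5 to 25 over single libraries left out). The *Obox4* sum in WT cells was 127 CPM with multi-mapping reads. Signs changed for *Emx2* (−0.57 with all libraries, 0.20 without double KO replicate 2 and 0.34 without WT replicate 2, in a range of −5.14 to 0.34 over single libraries left out), *Cd52* (−0.29 with all libraries and −0.85 to 0.053 over single libraries left out, positive without double KO replicate 3), RLTR13B2 (−0.70) and L1Md_T (−0.24), the last 2 with gene scaling, and none of these was called. The difference on chromosome 8 was 0.31, and became 0.46 with a pseudocount of 0.1 and 0.51 over genes with at least 100 counts, and that on chromosome X was −0.42, and became −0.71 and −0.63. The cause of these changes was not tested.

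Replicates of the same number did not deviate together (correlations of 0.0067, 0.0483 and 0.0609), so the numbers do not pair the libraries. With a replicate block 3857 genes were called, 1978 higher and 1879 lower, and 49 repeats, 43 named genes against *Dux* KO cells, 49 against *Obox4* KO cells and 7 interactions.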

Other observations

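Libraries of mESCs induced to express *Obox4*, grown without the knockout lines, give another view of the same genes. They were scaled within their own table, so levels are not comparable with those of PlaB cells, and no test was made. *Zscan4c* had 4.11, 2.57 and 3.31 CPM at 0 hr, 3.45, 4.76 and 7.05 CPM at 12 hr and 18.6, 15.8 and 12.8 CPM at 48 hr of induction. *Usp17le* had 3.78, 3.48 and 3.80 CPM at 0 hr, 10.3, 7.24 and 7.41 CPM at 12 hr and 20.2, 22.9 and 21.4 CPM at 48 hr. For both genes, which fell in double KO cells, every library at 48 hr lay above every library at 0 hr. *Gata2*, which was higher in double KO cells, had 10.3, 12.1 and 14.6 CPM at 0 hr and 3.15, 3.25 and 3.52 CPM at 48 hr, while *Krt8*, also higher in double KO cells, had 26.0, 24.8 and 21.4 CPM at 0 hr and 60.4, 55.4 and 50.6 CPM at 48 hr.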
